A study of Mus musculus with 4 samples.

Results

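The clonal line M2 was compared with the other 3 lines of the same mouse mammary tumor, E1, E2 and M1, by whole-transcript microarray with 1 array per line. A probe set (the group of array probes read together as 1 value for a gene) was taken as outside the range when its log2 level in M2 was above the highest or below the lowest of the other 3 lines. Its distance is the log2 difference from the nearest of them. Of 21789 probe sets listed with 1 gene symbol, which cover 19938 genes, 476 lay at least 2-fold outside in M2, and these are described here. M2 was above the other lines in 287 of them, or 1.32% of all, and below in 189, or 0.867%. They stand for 456 genes, 278 and 178 in the same order. Because the levels themselves chose these probe sets, their values are given as a description and not as a test, and no line has a replicate array. Levels are written in the order E1, E2, M1 and M2 throughout.

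All 4 lines were cloned by limiting dilution from 1 spontaneous tumor of a female FVB (FVB/N in the methods) mouse carrying the Tg MMTV/neu transgene, in which rat neu (ErbB2) is driven by the mouse mammary tumor virus promoter. E1 and E2 are epithelial and came from cells sorted for high neu and CD24, while M1 and M2 are mesenchymal-like and came from cells low for both. The epithelial pair was kept in RPMI and 20% serum. The mesenchymal-like pair was kept in MEGM, a mammary medium that supplies epidermal growth factor, hydrocortisone, insulin and an extract of bovine pituitary, and in 2% serum, so a difference between the pairs cannot be told apart from their media. M2 and M1 shared a medium. Each line is 1 clone from 1 animal, and RNA was taken from cultured cells. E1, E2 and M2 formed tumors after injection into the mammary fat pad and M1 did not, so M2 was the mesenchymal-like line that formed tumor. The rule used here cannot pick out levels that the tumor-forming lines share against M1. A link of the genes described here to tumor formation was not tested.

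Epithelial to mesenchymal transition is the loss of cell junctions and polarity by epithelial cells, with a gain of motility and of spindle shape. Transcription factors of the Zeb, Snai and Twist families repress E-cadherin and other junction genes during it. Mesenchymal-like carcinoma cells also change the matrix they secrete, the proteases that cut it and the signals they send to vessels and immune cells.

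The labels were checked on known markers. Cdh1, which encodes E-cadherin, was 12.15, 12.31, 6.70 and 6.51 on the log2 scale. Epcam, an epithelial adhesion molecule, was 12.70, 12.76, 5.77 and 5.46. The splicing factor Esrp1 was 11.42, 11.74, 5.43 and 5.61. M2 therefore lay with M1 on the junction genes, and its distance from the range was 0.19 below for Cdh1 and 0.31 below for Epcam. Zeb1 was 7.49, 6.96, 10.99 and 10.64, and Twist1 was 6.29, 6.24, 9.27 and 9.99. Vim, which encodes vimentin, was high in every line, at 12.79, 13.10, 13.72 and 13.82. Fn1, which encodes fibronectin, was 13.57, 12.74, 13.36 and 13.27 and did not separate the pairs. Cd24a, the gene of the CD24 antigen used in the sort, was 11.61, 12.15, 12.39 and 12.53. Its RNA was therefore not lower in the cultured lines that came from CD24-low cells. The sort itself read the antigen on tumor cells rather than RNA. The keratin genes Krt8 and Krt18 were also high in every line, with levels in M2 of 13.69 and 13.48, beside its low junction transcripts. Transcripts of other cell types were mostly dim. Of 12 leukocyte markers, 2 were above the median of all values (6.78) in M2, and the summed level of the list was 11.27, 10.73, 11.37 and 11.91 on the log2 scale. Ptprc, the pan-leukocyte marker CD45, was 5.51, 5.59, 5.88 and 5.54, while Cd68, a lysosomal protein abundant in macrophages, was 10.66, 8.77, 10.59 and 11.60. The summed levels add values before the log2 is taken, so a bright marker such as Cd68 weighs heavily in them. Of 12 endothelial markers, 1 was above that median in M2, and the summed level ran from 9.64 to 9.87 over the 4 lines. Of 14 fibroblast and pericyte markers, 5 were above it in M2, and 1 was at least 2-fold above the other lines. The summed level was 10.35, 10.51, 11.67 and 11.19, higher in M1 and M2 than in the epithelial lines. Col1a1 was 7.54, 7.73, 7.41 and 7.54. Of 9 adipocyte markers, 3 were above it in M2, and the summed level was 9.08, 9.23, 10.31 and 11.23, highest in M2. Fabp4, Pparg and Lpl were the 3, while Adipoq and Plin1 were at 4.76 and 6.74 in M2. The sum in M2 includes Fabp4 at 10.77, a gene that the rule itself chose.

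Upstream sequence is shown for the marker genes of M2 that have an entry in the promoter table used, so that the letters before their start sites can be read beside their levels. Ptges makes prostaglandin E, Aebp1 encodes a secreted matrix protein and Adm encodes the vasodilator peptide adrenomedullin. The 250 bases before each start are from RefSeq, build GRCm38.p6, and are written 5′ to 3′ on the strand of the gene. Capitals mark matches, on either strand, to 1 of 6 searched motifs. The core of the hypoxia response element was searched as ACGTG and the site of AP-1 factors as TGANTCA. The site of TEAD factors was searched as GGAATG and the E-box of Zeb and Snai factors as CACCTG. The GC box was searched as GGGCGG and the TATA box as TATAAA. Overlapping matches of any motifs share their capitals.
Ptges (chr2:30903298-30903547, - strand): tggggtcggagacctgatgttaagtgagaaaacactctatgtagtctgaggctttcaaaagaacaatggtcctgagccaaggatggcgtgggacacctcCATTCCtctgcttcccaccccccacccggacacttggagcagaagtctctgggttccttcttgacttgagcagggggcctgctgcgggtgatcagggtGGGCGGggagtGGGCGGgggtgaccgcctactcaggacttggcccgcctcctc
Aebp1 (chr11:5861616-5861865, + strand): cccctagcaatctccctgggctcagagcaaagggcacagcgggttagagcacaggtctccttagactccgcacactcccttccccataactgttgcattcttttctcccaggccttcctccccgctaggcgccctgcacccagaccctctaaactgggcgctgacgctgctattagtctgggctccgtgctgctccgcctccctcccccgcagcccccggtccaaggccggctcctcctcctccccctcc
Adm (chr7:110627407-110627656, + strand): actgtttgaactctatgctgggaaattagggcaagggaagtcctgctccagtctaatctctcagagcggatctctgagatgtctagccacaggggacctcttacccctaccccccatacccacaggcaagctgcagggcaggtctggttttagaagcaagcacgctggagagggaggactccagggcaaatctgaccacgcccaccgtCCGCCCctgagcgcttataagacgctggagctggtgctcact
The Ptges window held 1 TEAD match, written on the other strand as CATTCC, and 2 GC boxes. The Adm window held 1 GC box, read as CCGCCC, and the Aebp1 window held none of the 6 motifs. Over 32851 promoters of the same length, GGGCGG occurred in 32.7%, CACCTG in 17.2%, ACGTG in 16.6%, GGAATG in 12.6%, TATAAA in 12.4% and TGANTCA in 6.75%. The genes at least 2-fold above the other lines in M2 had 274 promoters, from 213 genes. Among these promoters, GGGCGG occurred in 46.7%, CACCTG in 19.0%, ACGTG in 18.2%, GGAATG in 12.0%, TATAAA in 11.3% and TGANTCA in 9.12%. The genes at least 2-fold below had 189 promoters, from 128 genes. Their shares were 54.0%, 14.8%, 13.8%, 15.3%, 10.6% and 3.70% in the same order. A gene with several promoters is counted more than once in these shares. GGGCGG was above its share over all promoters in both directions. No share was taken over genes of like level on the array, so this difference was not tested. A match of letters is a description and does not show that a factor binds there. Colec12, Cdh13 and Podxl are described by their levels alone.

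Colec12 lay farther above the other lines than any other gene measured. It encodes a collectin scavenger receptor of the cell surface that takes up lipoproteins and microbial sugars. Its level was 5.96, 6.10, 6.10 and 11.70, a distance of 5.60, or 48.5-fold above the nearest line. The other 3 lines lay within 0.14 of each other and below the median of all values. Cdh13, which encodes the glycosyl-phosphatidylinositol-anchored T-cadherin, was 6.52, 6.47, 6.83 and 11.97, which is 35.2-fold above the nearest line. Ptges was 6.62, 6.79, 7.17 and 11.81, or 24.9-fold above the nearest. Aebp1 was 7.34, 6.96, 6.95 and 11.79, or 21.9-fold above the nearest. For these genes the other lines were near the middle of the array and M2 was among its bright genes. Adm was 7.09, 6.23, 5.94 and 10.01. The line nearest to M2 for Adm was E1, at a distance of 2.92 (7.57-fold), and M2 was 4.07 above M1.

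Several of the other genes among the 20 farthest above encode cell surface proteins. Podxl, which encodes podocalyxin, a heavily glycosylated sialomucin, was 5.96, 6.01, 5.99 and 10.86 (28.9-fold). Lilr4b, an immunoglobulin-like receptor of myeloid cells, was 4.61, 4.86, 5.0 and 9.75 (26.8-fold). It has close relatives in the genome, so the gene behind the signal is less certain. Its relative Lilrb4a was also above, at 5.22, 5.25, 6.39 and 8.34 (3.85-fold). C3ar1, the receptor of complement fragment C3a, was 4.75, 5.25, 4.75 and 8.86 (12.2-fold). These receptors are best known from leukocytes. Ptprc was dim in M2. Cd68 was highest in M2 and is part of the summed leukocyte level, which was also highest there. The median of that list against the mean of the other lines was -0.02. Of its 12 markers, 1 was above all lines at any distance. The part of that list in these levels was not tested. Grpr, the receptor of gastrin-releasing peptide, was 5.07, 5.24, 6.43 and 10.12 (12.9-fold). Glrb, a glycine receptor subunit, was 5.15, 5.11, 5.72 and 9.22 (11.3-fold).

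Signaling and traffic proteins were also present. Rin3, an exchange factor for Rab GTPases, was 6.38, 6.47, 6.51 and 10.33 (14.1-fold). Rab6b, a Golgi GTPase, was 6.95, 6.96, 6.46 and 10.81, at a distance of 3.86, and M1 was the lowest of the lines for it. Apbb1ip, an adaptor between Rap1 and integrin activation, was 5.13, 5.16, 5.36 and 9.15 (13.8-fold). The orphan nuclear receptor gene Rorb was 5.42, 5.68, 6.78 and 10.02 (9.48-fold).

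Secreted, lipid and metabolic proteins made up most of the others. Edil3, a matrix ligand of integrins, was 4.90, 4.60, 4.85 and 9.06 (17.9-fold). Pltp, the phospholipid transfer protein, was 7.09, 7.26, 7.81 and 11.47 (12.6-fold). Fabp4, a fatty acid carrier of adipocytes and macrophages, was 5.26, 5.50, 7.20 and 10.77 (11.8-fold). Of the 9 adipocyte markers measured it was the 1 at least 2-fold above. The summed level of that list in M2, 11.23, includes Fabp4 itself and so adds nothing separate. The list's median difference from the mean of the other lines was 0.02. Dnph1, a nucleotide hydrolase, was 6.39, 6.66, 6.76 and 11.07 (19.9-fold). Inmt, an indolamine methyltransferase, was 5.34, 5.36, 5.64 and 9.75 (17.2-fold). Gm10419 and Vmn1r43 completed the 20, at distances of 3.47 and 3.46. Vmn1r43 belongs to a large family of similar vomeronasal receptor genes, and its value is uncertain for that reason.

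**Figure D1:**
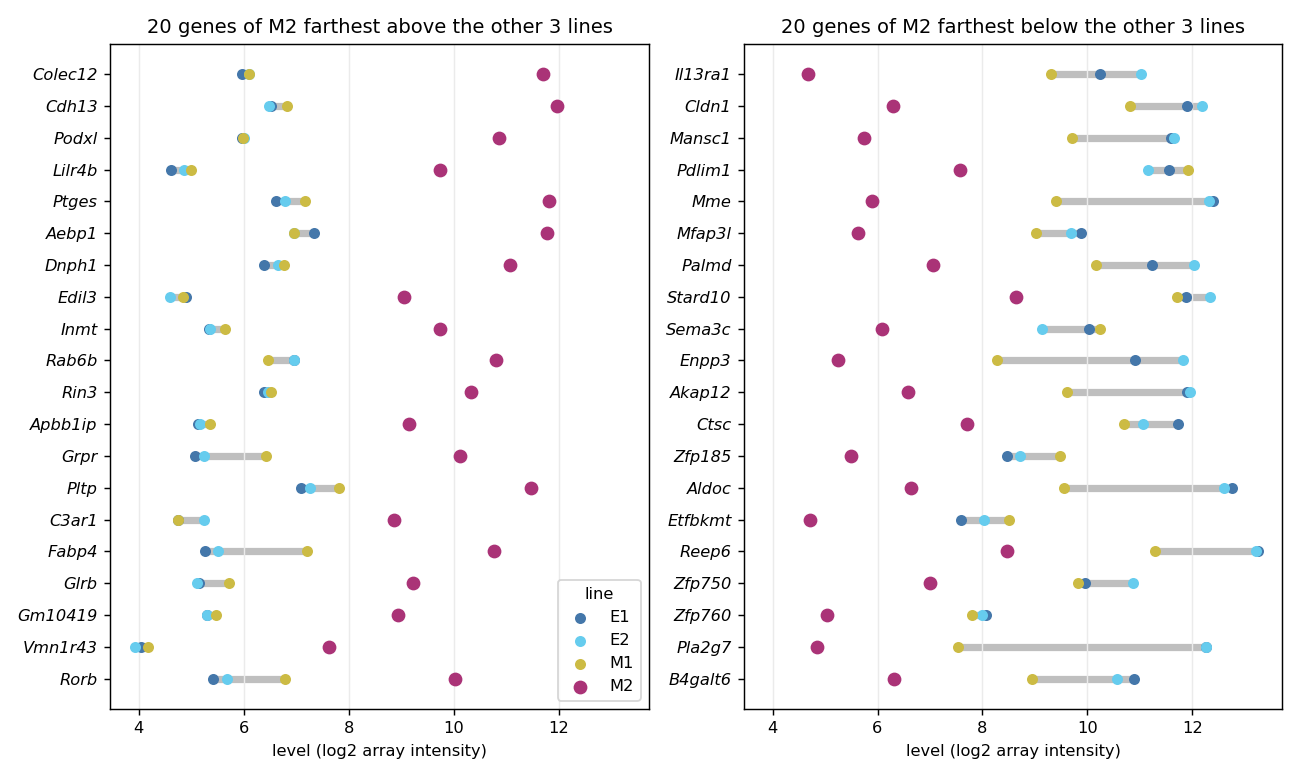
Levels of the 20 genes farthest above (left) and the 20 farthest below (right) the other lines in M2. Each point is 1 array on the log2 scale, the grey bar spans E1, E2 and M1, and genes are ordered by the distance of M2 from the nearest line. In the left panel the grey bars are short for most genes, while in the right panel M1 is often the low end of a long bar.

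The 20 genes farthest below were led by a cytokine receptor and a tight junction gene. Il13ra1, a receptor chain for interleukin 13, was 10.25, 11.02, 9.31 and 4.68, so that M2 was 24.7-fold below the nearest line. Cldn1, which encodes claudin 1 of tight junctions, was 11.90, 12.19, 10.82 and 6.30 (22.9-fold). Unlike Cdh1 and Epcam, Cldn1 was therefore bright in M1 and dim in M2. Mansc1, a membrane protein gene, was 11.60, 11.65, 9.71 and 5.74 (15.7-fold).

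Mme, which encodes the surface peptidase neprilysin (CD10) of basal mammary cells, was 12.39, 12.32, 9.40 and 5.89 (11.4-fold). Enpp3, an ectonucleotidase, was 10.91, 11.83, 8.28 and 5.25 (8.18-fold), and Pla2g7, a secreted phospholipase that breaks down platelet-activating factor, was 12.26, 12.26, 7.53 and 4.86 (6.37-fold). These enzymes were stepped, with the epithelial lines highest, M1 between and M2 lowest. Ctsc, a lysosomal peptidase, was 11.73, 11.06, 10.70 and 7.70 (7.96-fold).

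Cytoskeletal and scaffold genes were among the genes below. Pdlim1, which links actin filaments to kinases, was 11.56, 11.15, 11.91 and 7.58 in its brighter probe set (11.9-fold). Palmd, which encodes palmdelphin, was 11.24, 12.03, 10.16 and 7.05 (8.66-fold). Akap12, a scaffold of protein kinases A and C, was 11.90, 11.95, 9.60 and 6.57 (8.17-fold). Zfp185, an actin-associated protein gene, was 8.47, 8.71, 9.47 and 5.49 (7.93-fold). For Pdlim1 and Zfp185, M1 was the highest line and M2 the lowest.

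Sema3c, a secreted guidance factor, was 10.02, 9.13, 10.24 and 6.09 (8.21-fold). Stard10, a lipid transfer protein of epithelia, was 11.87, 12.34, 11.71 and 8.64 (8.41-fold). Zfp750, a transcription factor of epidermal differentiation, was 9.96, 10.88, 9.82 and 6.99 (7.11-fold). Aldoc, an aldolase of glycolysis, was 12.75, 12.60, 9.55 and 6.64 (7.51-fold). The remaining genes among the 20 were Mfap3l, Etfbkmt, Reep6, Zfp760 and B4galt6, at distances from -3.38 for Mfap3l to -2.63 for B4galt6.

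At 10-fold, 19 probe sets were above, or 0.0872% of all, and 7 below, or 0.0321%. Just inside the 2-fold bound were Tmem241 (7.79, 7.50, 7.86 and 8.86) above and Dhrs11 (10.41, 9.96, 10.97 and 8.96) below. Just outside it were Mageh1 (5.27, 5.21, 5.19 and 6.27) and Irgm1 (9.46, 11.25, 9.32 and 8.32). At the 10-fold bound, Vmn1r43 was the last gene inside above and Mfap3l below. Rorb and Palmd were the next beyond it, at distances of 3.24 and -3.11.

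In limma, with M2 against the mean of E1, E2 and M1 and 2 residual degrees of freedom, 0 of 23410 probe sets with a symbol passed an adjusted p of 0.05 as higher in M2 (0%) and 0 as lower (0%). At an unadjusted p under 0.05 there were 1656, or 7.07%, and the smallest adjusted p was 0.0967 by limma with Benjamini-Hochberg adjustment. M1 set against the other 3 lines in the same way gave 20 higher and 2 lower. In that fit the lone array is assumed to vary like the others. These numbers changed most when M1 was left out. M2 was then set against the epithelial lines alone, which differ from it in cell type and medium. That fit keeps 1 residual degree of freedom. With M1 left out, limma called 912 higher and 849 lower than E1 and E2, and 973 probe sets lay at least 2-fold above and 909 below both, or 165 and 167 at 10-fold.

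The genes above and below differed in where the other lines lay. For the 287 probe sets above, the median level was 6.95 for the mean of the other 3 lines and 9.45 for M2, and in 126 of them the mean of the others was below the median of all values. For the 189 below, the medians were 9.81 and 7.36, and in 60 of them M2 was under that median. The other 3 lines were within 2-fold of each other in 182 of the 287 (63.4%) and in 98 of the 189 (51.9%), against 86.2% of all probe sets with 1 symbol. M1 was at least 2-fold above both epithelial lines in 81 of the 287 (28.2%), against 4.71% of all, so that M2 was beyond M1 in the same direction. M1 was at least 2-fold below both in 60 of the 189 (31.7%), against 4.12% of all. The opposite arrangement, with M1 displaced the other way from M2, was seen in 3 of the 287 and 2 of the 189. M1 was the line nearest to M2 in 198 of the 287 (69.0%) and in 138 of the 189 (73.0%), against 42.6% of all probe sets. All lines enter the choice of these probe sets, so the shares describe them.

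**Figure D2:**
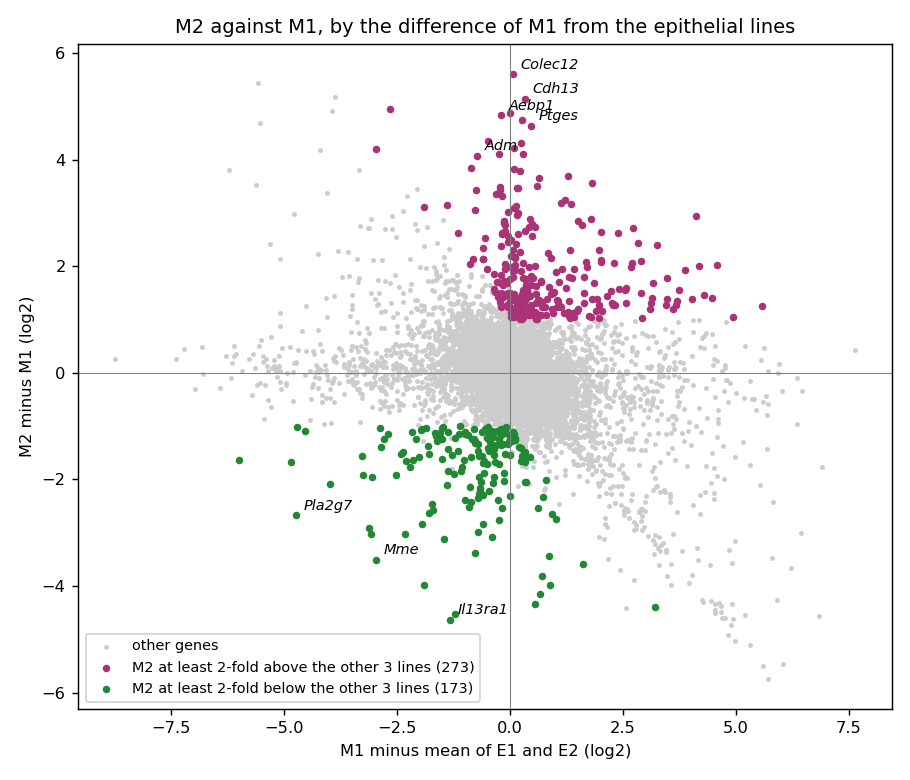
Difference of M2 from M1 (vertical, log2) against the difference of M1 from the mean of E1 and E2 (horizontal, log2), 1 point per gene. Colored points are the 273 genes at least 2-fold above and the 173 at least 2-fold below all other lines in M2, and they lie mostly at zero on the horizontal axis or on the side where M1 already differed in the same direction.

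The same bounds gave like numbers for M1 and smaller ones for the epithelial lines. M1 was at least 2-fold outside the other 3 lines in 494 probe sets (328 above and 166 below), E2 in 201 (118 and 83) and E1 in 115 (62 and 53). At 10-fold the numbers were 46 for M1, 26 for M2, 15 for E2 and 10 for E1. The 4 comparisons share their lines.

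To place M2 between the cell types, probe sets at least 4-fold apart between M1 and both epithelial lines were used, with the position of M2 set at 0 for the mean of E1 and E2 and at 1 for M1. M2 did not enter that choice, while M1 set both the choice and the end of the scale. For the 400 probe sets higher in the epithelial lines, the median position of M2 was 0.957, with quartiles of 0.729 and 1.05. M2 was within 0.25 of M1 in 274 of them (68.5%) and under 0.25 in 22 (5.5%). For 446 probe sets higher in M1, the median was 0.811, with quartiles of 0.306 and 1.03. Of these, 195 (43.7%) were within 0.25 of M1 and 104 (23.3%) were under 0.25. M2 thus sat at the level of M1 for most genes dim in M1, while for the genes bright in M1 the positions were more spread. Another 99 of these (22.2%) lay between 0.25 and 0.75, and 48 (10.8%) lay more than 0.25 beyond M1. Among those under 0.25, chosen after their values were seen, Pdgfrb, a receptor of platelet-derived growth factor, was 5.86, 6.03, 9.51 and 5.92. The scavenger receptor gene Cd36 was 4.46, 4.36, 9.10 and 4.50. Hspb1, a small heat shock protein gene, was 6.53, 6.51, 11.50 and 6.46. M2 was at least 2-fold beyond M1 in 36 of the 446 and in 21 of the 400.

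**Figure D3:**
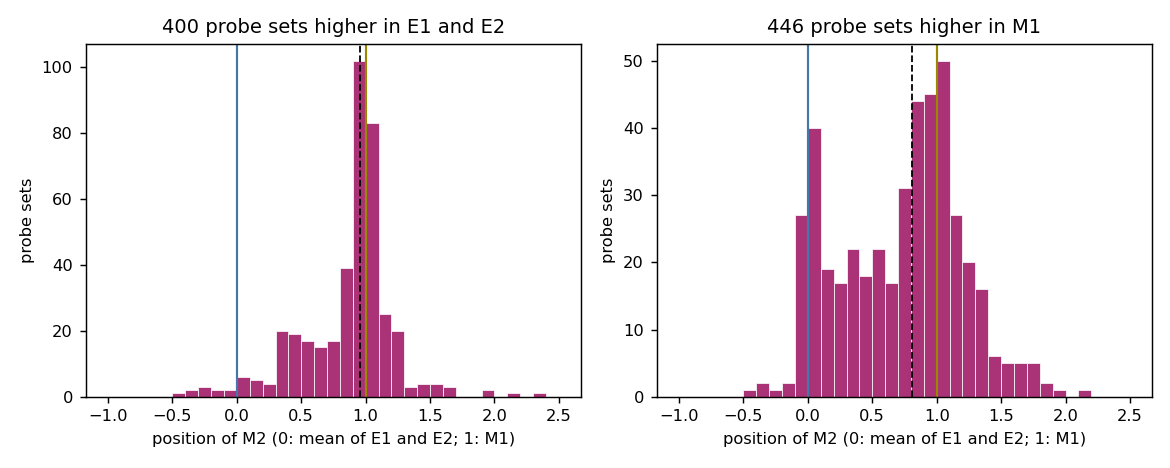
Position of M2 for probe sets at least 4-fold above M1 in both epithelial lines (left) or at least 4-fold above both of them in M1 (right). Bars count probe sets, the blue line at 0 is the mean of E1 and E2, the yellow line at 1 is M1 and the dashed line is the median. The left panel has 1 peak near M1 and the right panel has a peak near each end.

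Gene lists were described by 1 probe set per gene, the one with the highest mean over the arrays. Over all 19938 genes, 273 were at least 2-fold above (1.37%) and 173 at least 2-fold below (0.868%), and the median of M2 minus the mean of the other lines was 0.00. Of 735 genes on 32 lists, 694 had a probe set with 1 symbol. Lists in which M1 also differs from the epithelial lines shift against the mean of the 3 lines for that reason, so the median against M1 is given beside it where they differ. Within the lists, a gene is counted above or below only at a distance of at least 2-fold.

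Vasoactive peptides and matrix proteases had several members above. Of 24 vasoactive genes, 3 were at least 2-fold above and 0 below, and the list's median was 0.30 above the mean of the others and 0.21 above M1. Apln, which encodes the vascular peptide apelin, was 6.80, 6.94, 7.04 and 9.65. Ace, the angiotensin-converting enzyme, was 5.98, 5.95, 9.85 and 11.77. Adm was the third. Of 22 matrix proteases and inhibitors, 3 were above and 0 below, with a median of 0.52 against the others and 0.19 against M1. Mmp3, which encodes stromelysin 1, was 5.05, 5.32, 8.44 and 10.84. Plau, the urokinase gene, was 5.71, 5.68, 7.33 and 9.13, and the membrane-bound collagenase gene Mmp14 was 6.77, 6.98, 7.84 and 9.36. These proteases were already higher in M1 than in the epithelial lines, and higher again in M2.

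Secreted matrix glycoproteins had 4 of 31 members at least 2-fold above and 0 below, with a list median of 0.07, near that of all genes. They were Aebp1, Ccn3 (5.91, 5.91, 7.71 and 10.60), Sparcl1 (6.13, 6.19, 7.75 and 10.51) and Tgfbi (6.73, 6.95, 7.25 and 9.99). Ccn3 is a matricellular growth regulator, Sparcl1 a relative of osteonectin and Tgfbi a matrix protein induced by TGF-beta. Of 22 collagen genes, 0 were above and 1, Col11a1, was below, at 10.98, 10.42, 8.75 and 7.69. Of 26 integrin and laminin genes, Itga7 (6.58, 6.94, 7.66 and 9.82) and Itga5 (5.68, 5.86, 10.71 and 11.76) were above. Among 24 cadherins, Cdh13 was above and Fat1, a giant protocadherin, was below at 11.59, 11.38, 10.81 and 8.53. Among 22 scavenger receptors and collectins, Lrp1, an endocytic receptor, was above beside Colec12, at 7.39, 7.35, 10.98 and 12.18. Among 21 genes of prostaglandin synthesis and response, Cbr1, a reductase of prostaglandins, was above beside Ptges at 7.84, 8.05, 7.06 and 9.11.

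Genes of glycolysis and the hypoxia response were on the high side in M2. The median over 25 genes was 0.51 above the mean of the other lines, 0.65 above E1, 0.25 above E2 and 0.35 above M1. At least 2-fold above were Eno2 (7.70, 8.02, 7.96 and 11.04), an enolase, Bnip3 (9.56, 8.77, 9.44 and 10.80), a mitophagy receptor, and P4ha1 (10.85, 10.44, 10.93 and 12.10), a collagen prolyl hydroxylase. Aldoc was the 1 member below. The glucose transporter gene Slc2a1 was 12.17, 12.13, 12.56 and 13.15, and Egln3, an oxygen sensor that hypoxia induces, was 12.26, 11.43, 11.63 and 12.91.

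Interferon-stimulated genes were on the low side. Their median over 21 genes was 1.15 below the mean of the other lines, but E2 was far above the rest, and the median of M2 was 2.75 below E2, 0.22 below E1 and 0.72 below M1. Ifit3 (7.34, 11.61, 8.48 and 6.10), an antiviral protein, was the 1 gene at least 2-fold below all, and 0 were above. Usp18, a negative regulator of interferon signaling, was 7.50, 12.82, 9.27 and 7.17, and Irf7, a transcription factor of the response, was 7.49, 12.33, 7.97 and 6.69. M2 and E1 were thus both low on this list, and with E2 left out the list median was -0.58. Of 16 genes of antigen presentation by MHC class I, 1 (Tapbpl) was below and 0 above.

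The epithelial list of 35 genes had a median 2.29 below the mean of the other lines but 0.08 above M1, since M1 was 2.78 below the epithelial lines. Cldn1 and Esrp2 (10.24, 10.58, 7.63 and 6.40), a splicing regulator of epithelia, were at least 2-fold below all, and 0 of the list were above. Of 25 mesenchymal genes, 0 were at least 2-fold outside in either direction, with a median of 0.05. Among 19 transcription factors of the transition, Prrx1, a homeobox factor, was above at 5.73, 5.82, 10.24 and 11.64. Among 18 basal and myoepithelial markers, 3 were below and 0 above. They were Mme, Egfr and Id4. Id4, which encodes an inhibitor of differentiation, was 7.76, 7.78, 10.98 and 6.59, so that the mesenchymal-like lines were at opposite ends.

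Of 21 genes of the ErbB receptors and EGF family, 1 was above and 1 below, and of 28 receptor kinases and growth factors, 2 were above and 1 below. Egfr, the epidermal growth factor receptor, was 7.98, 9.38, 9.54 and 6.11, and M2 was 3.43 below M1. Both lines were grown with its ligand in the medium. Btc, which encodes betacellulin, another ligand of this receptor, was 9.18, 9.11, 8.54 and 10.68. Erbb2 was 11.83, 11.95, 10.58 and 11.03, inside the range, and the array's probes are designed for the mouse gene rather than the rat transgene. Whether these probes also read the transgene was not tested. Gas6, the ligand of Axl, was 6.50, 6.83, 8.67 and 10.79. Pdgfra was 7.78, 7.83, 8.71 and 10.20, against the low Pdgfrb above. Igf1r was 10.46, 10.34, 10.51 and 9.25.

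Developmental signals had members below. Tgfb2 was 10.97, 11.35, 10.56 and 8.27, and with Id4 it made 2 of 31 genes of the TGF-beta and BMP pathway below, with 0 above. Hes1, a target of Notch, was 10.76, 10.70, 10.08 and 8.03, and the Notch ligand gene Jag1 was 12.12, 11.59, 10.63 and 8.72, making 2 of 20 below and 0 above. Axon guidance genes had 6 of 29 below and 1 above. Besides Sema3c, the genes below were Efna5 (11.60, 11.01, 10.94 and 9.40), Sema6a (11.42, 11.72, 9.20 and 7.71), Epha4 (9.37, 9.14, 7.63 and 6.35), Sema3b (10.12, 9.82, 9.77 and 8.61) and Epha7 (9.08, 9.19, 8.13 and 6.98). Sema3a, a repulsive semaphorin, was above at 4.99, 5.01, 10.58 and 11.84. Of 36 Wnt genes, 0 were at least 2-fold outside in either direction.

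Several other lists held a few genes at least 2-fold outside. Of 26 cytokines and chemokines, 2 were above and 1 below. The alarmin gene Il33 was 5.40, 5.83, 7.91 and 9.98, the epithelial cytokine gene Tslp was 4.92, 5.05, 5.84 and 7.44, and Il1rn, the interleukin 1 antagonist, was 8.46, 8.50, 8.25 and 7.01. Pdgfc was below among 20 angiogenic factors, at 10.45, 10.28, 11.28 and 8.63. In the p53 list of 23 genes, Trp53i11 was above (9.63, 11.39, 7.86 and 12.81) and Plk2 below (11.20, 11.66, 10.53 and 8.01). Akr1b8, an aldo-keto reductase, was the 1 gene above in the Nrf2 list of 23 genes, at 5.21, 5.47, 8.23 and 10.33, and 0 were below. Of 29 proliferation genes, 23 of cholesterol and fatty acid synthesis and 20 luminal markers, 0 were at least 2-fold outside. The proliferation median was 0.20 above the mean of the others and 0.36 below M1.

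**Figure D4:**
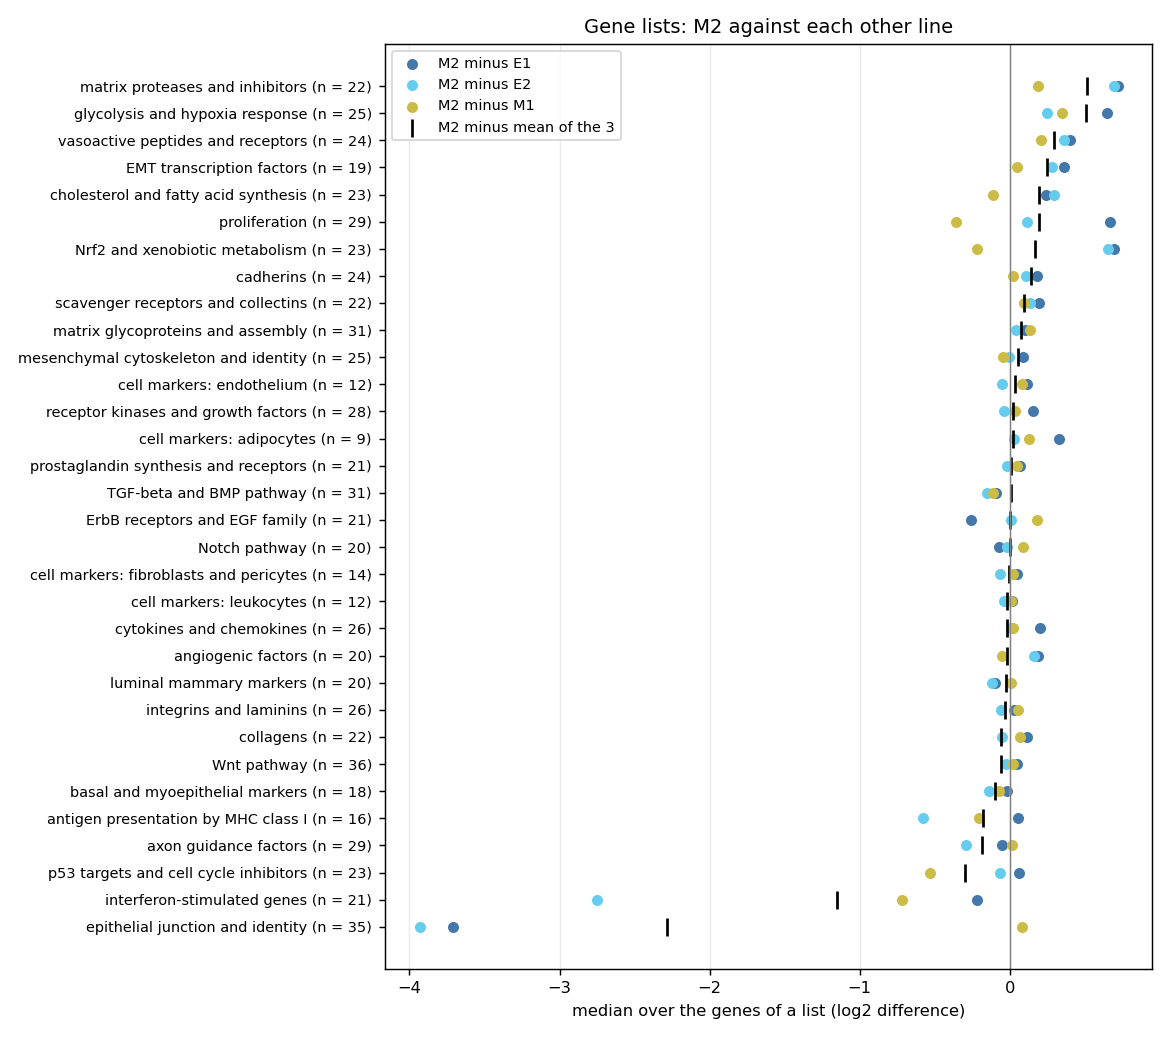
Median log2 difference between M2 and each other line over the genes of 32 lists, with the number of genes measured in brackets. Points are M2 minus E1, E2 or M1, black ticks are M2 minus the mean of the 3 lines, and the grey line is the median of all genes. Matrix proteases, glycolysis and vasoactive genes lie to the right against every line, interferon-stimulated genes lie to the left of every line, and the epithelial list lies left of E1 and E2 alone.

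Where a gene had several probe sets, these mostly lay on the same side. The 36 genes with a member probe set and at least 1 more had 74 others, of which 70 had M2 on the same side of the mean of the other lines and 20 were themselves at least 2-fold outside. Those 20 were chosen by the same rule, so part of this agreement follows from the choice. No such share was taken over all genes. Both probe sets of Pdlim1 were below, at -4.26 and -3.58. Adgrl2, named after its values were seen, encodes an adhesion receptor of the latrophilin family. It had 8 probe sets, of which 6 were between -2.55 and -1.85 and the last 2 at -0.12 and 0. In those 2, M1 was itself dim, at 5.60 and 4.08, beside 5.48 and 4.15 in M2. Etfbkmt had 1 probe set at -2.89 and another, dim in all lines, at 0.

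By the chromosomes given in the RefSeq gene table of GRCm38.p6, M2 was slightly lower than the other lines in the median over some chromosomes. This used 11845 genes whose mean level was above the median of all values, over which M2 was below all 3 lines in 30.4%, and the median differences of M2 from E1, E2 and M1 were -0.03, -0.01 and -0.04. On chromosome 7, M2 was below all 3 lines in 476 of 927 genes (51.3%), and the medians were -0.30 against E1, -0.15 against E2 and -0.28 against M1. Chromosome 8 had 44.7% of 651 genes below all lines, with medians of -0.21, -0.20 and -0.10. Chromosome 6 had 45.3% of 558 genes, with medians of -0.08, -0.18 and -0.27. Chromosome 13 had 40.1% of 419 genes, with medians of -0.17, -0.18 and -0.16. On chromosome X it was 45.5% of 323 genes, with medians of -0.19, -0.10 and -0.19. These were the 5 chromosomes on which M2 was at least 0.05 below each line. On the other 15, the median of M2 minus the mean of the 3 lines ran from -0.06 to 0.16 and the share below all lines from 6.81% to 37.5%.

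The shift depended on the level of the genes. Over genes at every level, the median of M2 minus the mean of the 3 lines was -0.05 on chromosome 7 and -0.01 on X, against 0.00 over all of them, while with the bound on brightness these were -0.27 and -0.16, against -0.03. It was spread along chromosomes 7 and 8 and uneven on X. With each chromosome divided into 8 blocks of consecutive genes, all 3 medians were below 0 in 8 of 8 blocks of chromosome 7, in 8 of 8 of chromosome 8, and in 6 of 8 of chromosomes 6 and 13. On X it was 5 of 8. There the second block had medians of -0.76, -0.54 and -0.53 against E1, E2 and M1, and the fifth block had 0.08, 0.06 and 0.05. Chromosome 12 stood apart in another way, with medians of 0.02 and 0.01 against the epithelial lines and 0.52 against M1, which was the low line there. The shifts are far smaller than the distances of the genes named above, and genes on these chromosomes were outside in both directions. Of the 206 genes at least 2-fold above and 171 at least 2-fold below among the 11845, 17 and 18 were on chromosome 7. In the same order, X had 9 and 9. More genes were below than above on chromosome 6 (9 and 12), chromosome 8 (4 and 10) and chromosome 13 (2 and 7). This was not particular to the chromosomes with the shift. It also held on chromosome 3 (7 and 17), chromosome 9 (8 and 9), chromosome 16 (4 and 5) and chromosome 17 (7 and 9).

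**Figure D5:**
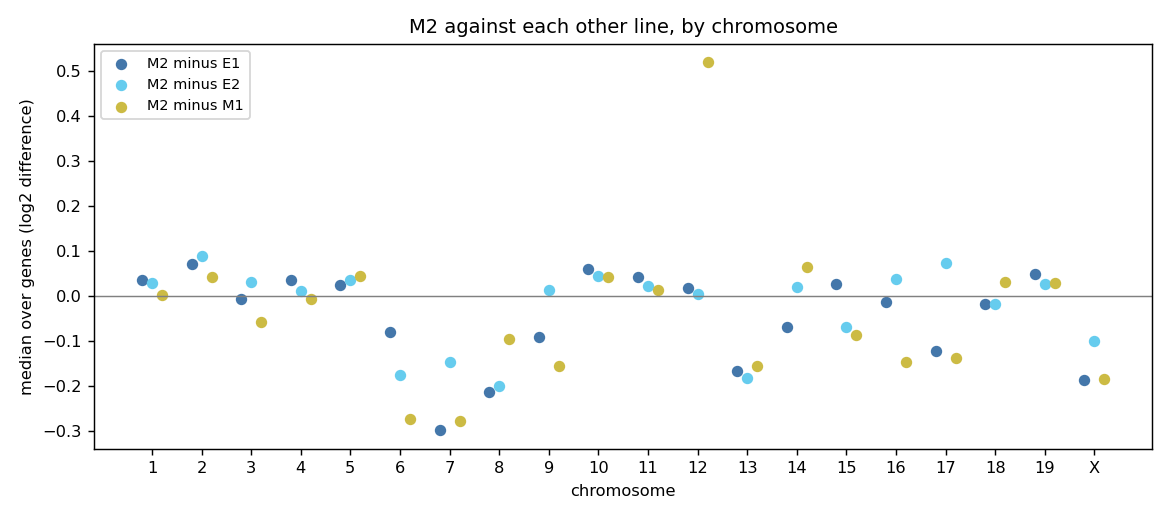
Median log2 difference between M2 and each other line over the genes of each chromosome whose mean level was above the median of all values. Points are M2 minus E1, E2 or M1. The points of chromosomes 6, 7, 8, 13 and X lie below zero for all 3 lines, and for chromosome 12 the comparison with M1 stands apart at 0.52.

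Neighboring genes both at least 4-fold outside were few. The kallikrein genes Klk1b11 (5.33, 5.09, 6.34 and 9.52) and Klk1b27 (5.19, 4.93, 7.76 and 9.82) on chromosome 7 were both above, but this family has near-identical members and its values are uncertain. Xlr (4.31, 4.56, 5.80 and 8.95) and 3830403N18Rik (3.70, 3.95, 4.05 and 6.32) on chromosome X were also both above. BC023105 and Smim3 on chromosome 18 lay in opposite directions, at distances of -2.08 and 2.08.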

How the data were processed

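Expression was measured on Affymetrix MoGene 1.0 ST arrays, 1 per line. The authors deposited normalized log2 levels. Partek is named for processing, with no version. Background correction, normalization and genome build are not given in the sources used here. The labels name Trizol for RNA and the methods a column kit. Of 35556 probe sets, 21789 have 1 symbol, 1621 several and 12146 none in the platform annotation used. By gene identifier, 0 symbols differed from a later gene table and 91 probe sets had no match.

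The median of all probe sets was 6.85 in M2 and between 6.75 and 6.76 in the other lines. The median difference of M2 from the mean of the others was 0.08 over probe sets without a symbol and 0.00 over those with 1, so the deposited values were used without rescaling.

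M2 was compared with E1, E2 and M1 by its distance from the nearest line and by limma 3.58.1 in R 4.3.3 (lmFit and eBayes, Benjamini-Hochberg adjustment over 23410 probe sets), which was tested on simulated data. The simulated E1, E2 and M1 shared a common mean, so the real differences between these lines were not part of that test. The members and gene lists were chosen with earlier results of these data known. Genes named are the markers Colec12, Cdh13, Ptges, Aebp1 and Adm, the 20 farthest above and below, those next to each bound, up to 5 per list that lay outside, label markers and neighboring pairs, with others marked or given as list examples. The alternatives were 2 other scalings, a floor or filter on low levels, probe sets with several symbols, other bounds, a trended variance, an adjusted p of 0.1 and leaving out each line. The number of arrays limits the precision.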

Additional observations from a re-analysis of the deposited data

How the results depend on the processing

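No paired analysis was possible because each line has 1 array. Probe sets at least 2-fold outside numbered 287 above and 189 below. At 4-fold these were 83 and 40. Leaving out 1 line gave 319 to 973 above and 215 to 909 below, the highest without M1. At 10-fold, the 19 above were 11 with low levels raised to the median of all values and 10 with only probe sets above it, and the 7 below were 3 with low levels raised. Leaving out 1 line gave 20 to 165 above and 8 to 167 below at 10-fold. At any distance, 50.3% of probe sets outside were above with the deposited values, 37.5% after quantile normalization and 27.0% after median centring. The direction of small differences depends on the scaling. At 2-fold the share was 60.3%, 60.8% and 52.0%.

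Limma called 0 in either direction, 2 higher at an adjusted p of 0.1, and 262 higher and 19 lower with low levels raised, where lines at the floor have no spread by construction. Leaving out 1 line gave 0 to 912 higher and 0 to 849 lower, the highest without M1, which leaves 1 residual degree of freedom.

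The median position of M2 on genes higher in E1 and E2 was 0.978 after quantile normalization, 0.982 after median centring, 1.000 with low levels raised and 0.971 at 10-fold. On genes higher in M1 it was 0.817, 0.775, 0.820 and 0.860 in that order, 0.897 with only bright probe sets and 0.818 without E1 and 0.818 without E2. Of 84 genes named by their distance, 2 came under 2-fold after median centring and 8 with low levels raised, and 0 changed direction. Of 32 lists, 18 had a median above 0, against 10, 8 and 8 after quantile normalization, median centring and raising low levels, and no list median over 0.2 in size changed sign in any setting. Settings for chromosomes were chosen after seeing the data. The median of chromosome 7 was -0.27 and ran from -0.40 in genes with a mean above 9 to -0.05 in genes at every level, where chromosomes 6, 7, 8, 13 and X were 0.01 to 0.07 below all genes. The 3 neighboring pairs were 1 after median centring and 3 to 58 on leaving out 1 line, the highest without M1.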
